A study of Mus musculus with 24 samples.

Results

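The HoxA cluster genes are the homeobox transcription factor genes that lie side by side on mouse chromosome 6. Members were taken by gene name from the deposited table of protein-coding genes, as the entries Hoxa2, Hoxa3, Hoxa4, Hoxa5, Hoxa6, Hoxa7, Hoxa9, Hoxa10, Hoxa11 and Hoxa13, in the order in which they lie on the chromosome. They make 10 of the 22053 gene entries in the file, and all 10 had values in each of 24 RNA-seq libraries.

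The study compared skeletal cells sorted from the spine with skeletal cells sorted from the hindlimb long bones, and, at each site, cells with and without the surface protein EMB (embigin). The labels give all mice as wild type (WT) males at postnatal day 10. Every cell population was taken from the gate CD45- Ter119- CD31- Thy1- 6C3- CD200+ CD105-, which is meant to leave out blood and endothelial cells. Vertebral cells were further divided by GFP, which the series design describes as zic1-cre positive or negative. The WT label does not name the cre allele. With 4 libraries each, the 6 groups crossed the 3 sources, vertebral GFP+, vertebral GFP- and long bone, with presence or absence of EMB. The long bone source was femur and tibia together, so the skeletal segments of the limb cannot be told apart, and all long bone cells were GFP negative. Vertebral GFP+ and long bone cells therefore differ in both site and GFP, whereas vertebral GFP- and long bone cells differ in site alone by these labels. The sample numbers in the titles run separately for vertebral and long bone libraries. Any difference in handling that followed these numbers cannot be told apart from site. The level of the spine from which vertebrae were taken is not given in the sources used here.

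Hox genes give cells a memory of their position along the body. In vertebrates they sit in 4 clusters, and genes at the 3′ end of a cluster, such as Hoxa2, are used nearest the head, while genes at the 5′ end, such as Hoxa13, are used toward the tail and toward the tip of the limb. In the skeleton, Hox genes of the middle groups pattern neck and thoracic vertebrae, and the groups numbered 9 to 13 pattern the lumbar to tail vertebrae and, in the HoxA and HoxD clusters, the segments of the limb. Skeletal cells are known to keep part of this code after birth.

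For 4 libraries the title and the cell type label disagree. The vertebral GFP- EMB+ libraries were grouped by their cell type label, but their titles name Emb- GFP+ cells. In these libraries the Emb transcript had a mean level of 49.5 FPKM, a level scaled by transcript length and by the size of the library, against 50.0 FPKM in the EMB+ and 0.398 FPKM in the EMB- group of vertebral GFP+ cells, and Zic1 had a mean level of 0.041 FPKM, against 1.87 in vertebral GFP+ EMB+ cells. Every result on vertebral GFP- EMB+ cells rests on the cell type label. The other comparisons were repeated without these 4 libraries, and any call that was lost is given with its result. Summed FPKM ranged from 382364 to 568495 per library, and 10158 to 11204 genes reached 1 FPKM. Depth was read from the values themselves. From the steps between low values of 3950 genes with a single transcript, 1 fragment in a transcript of 1 kb was worth 0.0372 to 0.0537 FPKM, depending on the library. Long bone EMB- replicate 4 stood furthest from its group, with a lowest correlation of 0.925 with another library of its group, against 0.978 or more within the other groups.

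The gate was checked against marker genes. Summed levels of 13 chondrocyte markers were 53840 to 61620 FPKM in vertebral and 30501 to 44309 FPKM in long bone libraries, and 11 osteoblast markers summed to 4248 to 9017 FPKM in vertebral and 12820 to 33553 FPKM in long bone libraries. The 5 endothelial markers summed to at most 6.17 FPKM in any library. Of the EMB- groups, 2 had high erythroid marker levels: the 9 such markers in the file summed to 7300 to 12394 FPKM in vertebral GFP- and 20239 to 42618 FPKM in long bone libraries. They summed to 122 to 979 FPKM in the other 4 groups. Leukocyte markers were highest in vertebral GFP- EMB+ cells at 413 to 3088 FPKM, and skeletal muscle markers in long bone EMB- cells at 328 to 809 FPKM. These marker levels move with the groups compared, and their part in the HoxA differences was not tested. In such bulk libraries fewer cells of a type and less RNA per cell cannot be told apart.

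On GRCm38, the build named in the submitters' processing notes, the 10 gene models span chr6:52162417-52260880, or 98.5 kb, all on the minus strand, so that Hoxa13 is the most 5′ and Hoxa2 the most 3′ member. Hoxa2 lies at chr6:52162417-52164831, Hoxa5 at chr6:52201754-52204587, Hoxa7 at chr6:52214491-52221854, Hoxa9 at chr6:52223100-52231089, Hoxa10 at chr6:52231197-52240854, Hoxa11 at chr6:52242106-52245810 and Hoxa13 at chr6:52257694-52260880. The Hoxa3 model at chr6:52169062-52213336 runs across Hoxa4 (chr6:52189671-52191753), Hoxa5 and Hoxa6 (chr6:52206288-52208722), and the read-through gene Gm28308 (chr6:52163359-52213339) covers Hoxa3 and part of Hoxa2, so the division of reads among these models is uncertain. Long non-coding genes such as Hotairm1, Hoxaas2, Hoxaas3 and Hoxa11os lie antisense within the cluster. The library kit does not mark strand, so reads from a Hox gene and its antisense partner cannot be told apart.

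The HoxA cluster split into 2 blocks by site. All 6 genes from Hoxa2 to Hoxa7 were higher in vertebral cells, and all 4 genes from Hoxa9 to Hoxa13 were higher in long bone cells. This held in each of the 4 comparisons of vertebral with long bone cells, which pair GFP+ or GFP- vertebral cells with long bone cells within EMB+ or within EMB- cells. In each comparison limma called all 10 members at an adjusted p under 0.05, with 6 higher and 4 lower. Genes were tested if they reached 1 FPKM in at least 4 libraries. Hoxa2, Hoxa3 and Hoxa4 reached it in vertebral libraries alone, and Hoxa13 in long bone libraries alone. Among long bone libraries Hoxa6 reached it only in EMB+ replicate 4, at 1.09 FPKM. The direction of these 5 members was thus tied to the site through which they passed the filter. Over all 11767 genes tested, limma called 21.5% for vertebral GFP+ against long bone EMB+ cells and 47.8% for the same pair of EMB- cells. It called 19.1% for vertebral GFP- against long bone EMB+ cells and 48.2% for the EMB- cells of that pair. The genes called higher were 8.66%, 7.40%, 8.49% and 8.05% of those tested in the same order, and the genes called lower were 12.9%, 40.4%, 10.6% and 40.2%. In the same order, the median log2 difference over the 10 members was 0.93, 0.77, 0.79 and 0.63, and that over all genes was -0.01, -0.27, 0.01 and -0.28. The 4 comparisons share groups, each long bone group serving 2 of them, so they are not independent of each other. The titles call the libraries biological replicates, and each p-value is set against the spread among them.

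**Figure D1:**
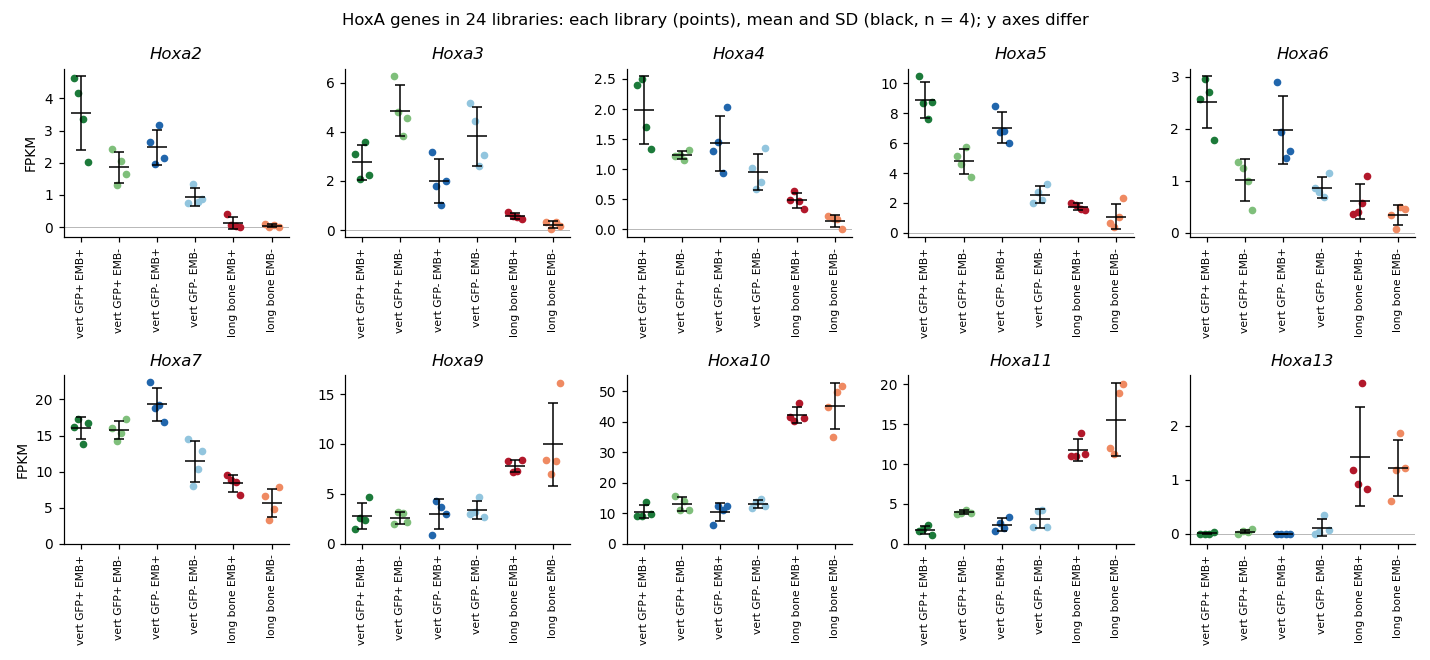
FPKM level of each HoxA gene in each of the 24 libraries, by group, with points for libraries and bars for the mean and SD of 4 libraries; the y axes differ between genes. Hoxa2 to Hoxa7 sit higher in the vertebral groups, and Hoxa10 sits at 34.9 to 51.8 FPKM in long bone libraries against 6.20 to 15.8 FPKM in vertebral libraries.

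The gene pair at which the direction changes is Hoxa7 and Hoxa9, which are neighbours with no Hoxa8 between them. Sequences upstream of their RefSeq start sites are shown to place this turn on the DNA, with Hoxa2 as the 3′ end of the first block and Hoxa10 as the most abundant gene of the other block. They are from RefSeq on GRCm38.p6, read 5′ to 3′ on the minus strand. Of the 10 members, 9 matched an entry in the promoter table, all but Hoxa4. Capitals mark exact matches, on either strand, to 4 short motifs: TTTATG, the Cdx motif; AGGTCA, the retinoic acid receptor half-site; CCAAT, the NF-Y motif; and TGATNNAT, the Pbx and Hox motif. The windows are chr6:52164832-52165081 for Hoxa2, chr6:52218712-52218823 for Hoxa7, chr6:52227371-52227620 for Hoxa9 and chr6:52234940-52235189 for the internal Hoxa10 start. None of these bases lies under an annotated exon, and the Hoxa7 sequence is the 112-base exon-free stretch that ends 139 bases before its start, whereas the others hold the 250 bases before the start.
Hoxa2: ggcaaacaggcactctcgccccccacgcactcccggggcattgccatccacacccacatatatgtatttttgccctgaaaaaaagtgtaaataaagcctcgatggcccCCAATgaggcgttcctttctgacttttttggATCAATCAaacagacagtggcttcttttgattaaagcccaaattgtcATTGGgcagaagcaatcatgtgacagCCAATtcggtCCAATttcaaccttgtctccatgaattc
Hoxa7: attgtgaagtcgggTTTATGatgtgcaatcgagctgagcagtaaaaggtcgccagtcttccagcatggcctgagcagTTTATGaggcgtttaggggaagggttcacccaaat
Hoxa9: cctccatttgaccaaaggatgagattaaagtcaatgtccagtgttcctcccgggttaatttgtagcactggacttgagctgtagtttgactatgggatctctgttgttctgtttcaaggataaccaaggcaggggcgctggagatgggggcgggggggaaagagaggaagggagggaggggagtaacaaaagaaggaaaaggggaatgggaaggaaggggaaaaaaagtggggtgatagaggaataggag
Hoxa10: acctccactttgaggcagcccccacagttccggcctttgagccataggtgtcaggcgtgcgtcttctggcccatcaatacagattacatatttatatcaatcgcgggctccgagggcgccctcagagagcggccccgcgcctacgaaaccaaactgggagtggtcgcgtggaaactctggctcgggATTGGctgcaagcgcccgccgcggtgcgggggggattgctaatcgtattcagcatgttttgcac

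The Hoxa2 window held CCAAT at 4 places, 3 as written and 1 on the opposite strand, and 1 TGATNNAT match on the opposite strand. Hoxa7 held TTTATG at both places shown in capitals, the internal Hoxa10 window held 1 CCAAT match on the opposite strand, and the Hoxa9 window held no match to any of the 4 motifs. Among the 10 promoter entries of the members, the number of 250-base windows with a match was 1 for TTTATG, 0 for AGGTCA, 5 for CCAAT and 1 for TGATNNAT. Among 32851 promoter windows of the same length in the table, 10.8%, 14.0%, 33.8% and 7.68% held a match to these motifs, in the same order. No motif match overlapped another. A match describes these letters only.

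Hoxa2, which patterns the hyoid arch and the hindbrain, was measured at 4.65, 4.16, 3.36 and 2.04 FPKM in the vertebral GFP+ EMB+ libraries and at 2.64, 1.96, 3.18 and 2.16 FPKM in the vertebral GFP- EMB+ libraries. It was at 0.418, 0.0530, 0.0388 and 0 FPKM in the long bone EMB+ libraries. Every vertebral library was above every long bone library, and the long bone values rest on about 20, 2, 2 and 0 fragments. Among EMB- cells, the levels were 2.43, 1.30, 2.04 and 1.65 FPKM in vertebral GFP+, 0.763, 1.33, 0.794 and 0.861 FPKM in vertebral GFP- and 0.108, 0, 0.0689 and 0 FPKM in long bone cells. Hoxa2 differed from long bone EMB+ cells by 1.99 on the log2(FPKM + 1) scale (SE 0.18, limma adjusted p = 3.63e-09) in vertebral GFP+ and by 1.63 in vertebral GFP- cells. Between EMB- cells the difference was 1.44 and 0.88.

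Hoxa3, needed for the thymus, parathyroid and throat cartilages, was at 3.11, 2.10, 3.60 and 2.23 FPKM in vertebral GFP+ EMB+ and at 0.755, 0.574, 0.537 and 0.437 FPKM in long bone EMB+ libraries. In EMB- cells it was at 6.27, 4.82, 3.82 and 4.56 FPKM in vertebral GFP+ and at 0.347, 0.0318, 0.335 and 0.157 FPKM in long bone libraries. The groups did not overlap in either cell class, and the gap was wider in EMB- cells. The ratio of mean FPKM was 4.79 in EMB+ and 22.3 in EMB- cells for vertebral GFP+ cells, and 3.48 and 17.6 for vertebral GFP- cells. Hoxa4, which patterns neck vertebrae, was at 2.40, 2.50, 1.70 and 1.33 FPKM in vertebral GFP+ EMB+ and at 0.492, 0.635, 0.467 and 0.334 FPKM in long bone EMB+ libraries, again with no overlap. Its log2(FPKM + 1) difference was 0.99 (SE 0.15, limma adjusted p = 1.6e-05), and it was 0.70 to 0.97 in the other 3 comparisons.

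Hoxa5, which patterns the junction of neck and thorax and the lung, was the most abundant of the genes from Hoxa2 to Hoxa6 in vertebral EMB+ cells, at 10.5, 8.70, 7.63 and 8.77 FPKM in GFP+ and 8.51, 6.77, 6.81 and 6.04 FPKM in GFP- libraries. In long bone EMB+ libraries it was at 2.01, 1.89, 1.58 and 1.52 FPKM. All vertebral EMB+ libraries were above these, and the log2(FPKM + 1) difference was 1.85 (SE 0.19, limma adjusted p = 6.01e-08) for GFP+ and 1.54 for GFP- cells. In EMB- cells, vertebral GFP- libraries at 1.98, 2.72, 2.20 and 3.28 FPKM overlapped long bone libraries at 0.671, 0.360, 1.03 and 2.30 FPKM, because long bone EMB- replicate 4 was above vertebral GFP- replicates 1 and 3. The difference there was 0.83 (limma adjusted p = 0.000996).

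Hoxa6, a neighbour of Hoxa5 used at similar body levels, had the smallest site difference of the first block in EMB- cells on the log2(FPKM + 1) scale. By the ratio of mean FPKM, vertebral over long bone, Hoxa7 was smaller in these cells, at 2.79 against 3.01 for Hoxa6 with GFP+ and 2.02 against 2.58 with GFP- cells, and Hoxa5 was at 2.33 with GFP- cells. In EMB+ cells it was at 2.58, 2.96, 2.71 and 1.79 FPKM in vertebral GFP+ EMB+ against 0.357, 0.405, 0.573 and 1.09 FPKM in long bone EMB+ libraries, with no overlap. In EMB- cells the vertebral GFP+ libraries, at 1.37, 1.24, 1.00 and 0.438 FPKM, overlapped the long bone libraries at 0.331, 0.0634, 0.501 and 0.448 FPKM, since vertebral replicate 4 was low. The log2(FPKM + 1) difference was 0.58 (limma adjusted p = 0.0106) there and 0.49 (limma adjusted p = 0.0282) for vertebral GFP- EMB- cells, whose libraries at 0.858, 0.781, 0.686 and 1.15 FPKM did not overlap those of long bone. The latter call was lost without vertebral GFP- EMB- replicate 4 (adjusted p = 0.0859), without long bone EMB- replicate 2 (adjusted p = 0.104) and with a pseudocount of 5 (adjusted p = 0.084).

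Hoxa7, a thoracic-level Hox gene and a known target of the histone methyltransferase MLL, was abundant at both sites. It was at 16.2, 17.3, 13.8 and 16.8 FPKM in vertebral GFP+ EMB+, 22.4, 18.8, 19.3 and 16.9 FPKM in vertebral GFP- EMB+ and 9.54, 8.78, 8.50 and 6.75 FPKM in long bone EMB+ libraries. No long bone library reached a vertebral one in this cell class, but the ratio of mean FPKM was only 1.91 for GFP+ and 2.30 for GFP- cells. In EMB- cells it was at 16.1, 14.3, 15.4 and 17.3 FPKM in vertebral GFP+, 14.5, 7.95, 10.4 and 12.8 FPKM in vertebral GFP- and 6.66, 3.32, 4.79 and 7.84 FPKM in long bone libraries, again without overlap between the sites. The log2(FPKM + 1) difference ran from 0.86 (limma adjusted p = 0.000629) to 1.38 (limma adjusted p = 5.09e-07) over the 4 comparisons. Hoxa7 thus combined the highest levels of the first block with small ratios between sites.

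Hoxa9, which acts in blood stem cells and in patterning where thorax and lumbar spine meet, was the first gene of the opposite block. It was at 1.52, 2.56, 2.36 and 4.68 FPKM in vertebral GFP+ EMB+, 0.909, 4.30, 3.72 and 3.03 FPKM in vertebral GFP- EMB+ and 8.33, 7.20, 7.34 and 8.35 FPKM in long bone EMB+ libraries. Every long bone library was above every vertebral library, and the ratio of mean FPKM, long bone over vertebral, was 2.81 for GFP+ and 2.61 for GFP- cells. In EMB- cells, long bone replicate 4 at 16.1 FPKM stood above the other long bone replicates at 8.42, 6.96 and 8.32 FPKM, and vertebral libraries were at 2.20 to 3.15 FPKM in GFP+ and 2.67 to 4.69 FPKM in GFP- cells. The log2(FPKM + 1) difference, vertebral minus long bone, was -1.28 (SE 0.27, limma adjusted p = 0.000791) for GFP+ EMB+ cells and -1.55 to -1.24 in the other 3 comparisons. The miRNA gene Mir196b lies inside the Hoxa9 model at chr6:52230081-52230165 and is not measured separately here.

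Hoxa10, which patterns lumbar vertebrae and the femur, had the highest level of all members in long bone cells. It was at 41.5, 40.4, 46.0 and 41.2 FPKM in long bone EMB+ and 44.8, 34.9, 49.8 and 51.8 FPKM in long bone EMB- libraries. Vertebral libraries were at 9.19, 9.27, 13.8 and 9.90 FPKM in GFP+ EMB+, 6.20, 12.5, 11.1 and 12.3 FPKM in GFP- EMB+, 15.8, 11.1, 14.0 and 11.3 FPKM in GFP+ EMB- and 11.7, 13.6, 14.8 and 12.4 FPKM in GFP- EMB- cells. The lowest long bone library, at 34.9 FPKM, was above the highest vertebral one, at 15.8 FPKM, and neighbouring vertebral groups overlapped. The ratio of mean FPKM was 4.01 for both vertebral lineages in EMB+ cells and 3.47 and 3.45 for GFP+ and GFP- in EMB- cells. On the log2(FPKM + 1) scale the difference was -1.92 (SE 0.17, limma adjusted p = 3.99e-09) and -1.95 in EMB+ cells.

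Hoxa11, required for the lower leg and forearm bones, was at 1.63, 1.85, 2.40 and 1.10 FPKM in vertebral GFP+ EMB+, 1.57, 2.57, 1.97 and 3.42 FPKM in vertebral GFP- EMB+ and 11.0, 11.0, 13.8 and 11.3 FPKM in long bone EMB+ libraries. In EMB- cells it was at 3.79, 3.83, 4.29 and 3.92 FPKM in vertebral GFP+, 2.10, 4.08, 4.25 and 2.13 FPKM in vertebral GFP- and 12.0, 11.3, 19.0 and 20.1 FPKM in long bone libraries. No vertebral library reached the lowest long bone library. The ratio of mean FPKM, long bone over vertebral, was 6.76 for GFP+ and 4.94 for GFP- EMB+ cells, and 3.94 and 4.96 for EMB- cells. Between GFP+ EMB+ cells and long bone the log2(FPKM + 1) difference was -2.24 (SE 0.21, limma adjusted p = 7.11e-09).

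Hoxa13, which patterns the hand and foot, was at the bottom of the range. It was listed at 0 in all 4 vertebral GFP- EMB+ libraries, at 0, 0, 0 and 0.0248 FPKM in vertebral GFP+ EMB+, at 0, 0.0544, 0.0260 and 0.0818 FPKM in vertebral GFP+ EMB- and at 0, 0.0240, 0.339 and 0.0769 FPKM in vertebral GFP- EMB- libraries. Long bone libraries were at 1.18, 0.926, 2.80 and 0.831 FPKM in EMB+ and 0.610, 1.17, 1.88 and 1.23 FPKM in EMB- cells. All 8 long bone libraries were above all 16 vertebral libraries. The log2(FPKM + 1) difference was -1.21 (limma adjusted p = 1.26e-05) for GFP+ EMB+ cells and -1.22, -1.07 and -0.98 in the other comparisons. These differences depend on the pseudocount, since vertebral values are at or near 0.

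**Figure D2:**
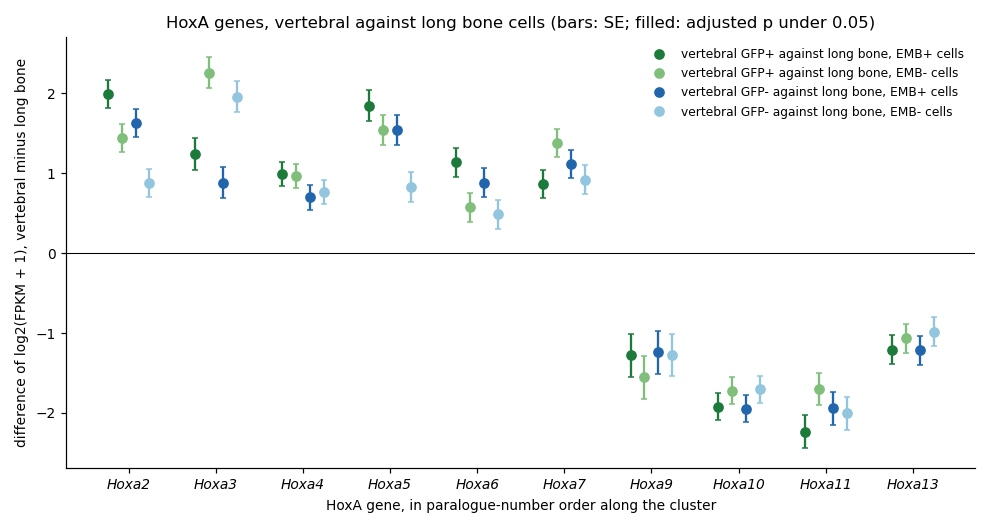
Log2(FPKM + 1) difference, vertebral minus long bone, of each HoxA gene in chromosomal order, for the 4 comparisons, with bars for 1 SE and filled points for an adjusted p under 0.05. The differences are above 0 from Hoxa2 to Hoxa7 and below 0 from Hoxa9 to Hoxa13 in each comparison, between 1.99 for Hoxa2 and -2.24 for Hoxa11 in GFP+ EMB+ cells.

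The order of the group means also showed how far the sites were apart. The share of all genes tested that separate in the same way was not counted. A lack of overlap, here or for single genes above, therefore does not show that HoxA genes stand out. For Hoxa9, Hoxa10, Hoxa11 and Hoxa13 the lower long bone group did not overlap the highest vertebral group, and no other neighbours in the order of means were apart. For Hoxa2, Hoxa3 and Hoxa4 the lowest vertebral group did not overlap the highest long bone group. For Hoxa5, Hoxa6 and Hoxa7 that step did overlap, between vertebral GFP- EMB- cells, at means of 2.55, 0.868 and 11.4 FPKM, and long bone EMB+ cells, at means of 1.75, 0.608 and 8.39 FPKM. For Hoxa7 every pair of neighbouring groups overlapped. The split of 6 higher and 4 lower calls was the same without scaling, with median-ratio scaling and with quantile scaling. Over all genes those scalings moved the higher share of calls in GFP+ against long bone EMB- cells from 15.5% to 41.7% and 59.5%, and in GFP- against long bone EMB- cells from 16.7% to 41.3% and 51.9%. In GFP+ against long bone EMB+ cells quantile scaling moved it from 40.2% to 50.5%.

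The make-up of the HoxA output shifted with site. Summed over the 10 genes, vertebral GFP+ cells had a level of 50.8 ± 1.47 FPKM with EMB and 49.2 ± 3.91 FPKM without it (SD, n = 4). Vertebral GFP- cells had 50.2 ± 1.31 and 40.3 ± 1.24 FPKM, and long bone cells 75.2 ± 4.66 and 79.5 ± 17.7 FPKM, again with and without EMB (SD, n = 4). Hoxa9 to Hoxa13 made 29.7% ± 5.53, 39.9% ± 1.94, 31.7% ± 9.60 and 49.0% ± 8.25 of that sum in the vertebral groups, in the same order, against 84.1% ± 1.96 and 90.8% ± 2.14 in long bone cells with and without EMB (SD, n = 4). By library the share ranged from 17.5% to 58.0% in vertebral and from 82.1% to 93.2% in long bone cells. Hoxa10 alone made 20.7% to 32.6% of the sum in vertebral group means and 56.2% and 57.5% in long bone cells. Hoxa2 to Hoxa5 made 33.8% of the sum in vertebral GFP+ EMB+ cells and 3.91% of it in long bone EMB+ cells. FPKM is per transcript length, so the levels of different members can be set side by side on this scale, within the uncertainty of the overlapping models.

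**Figure D3:**
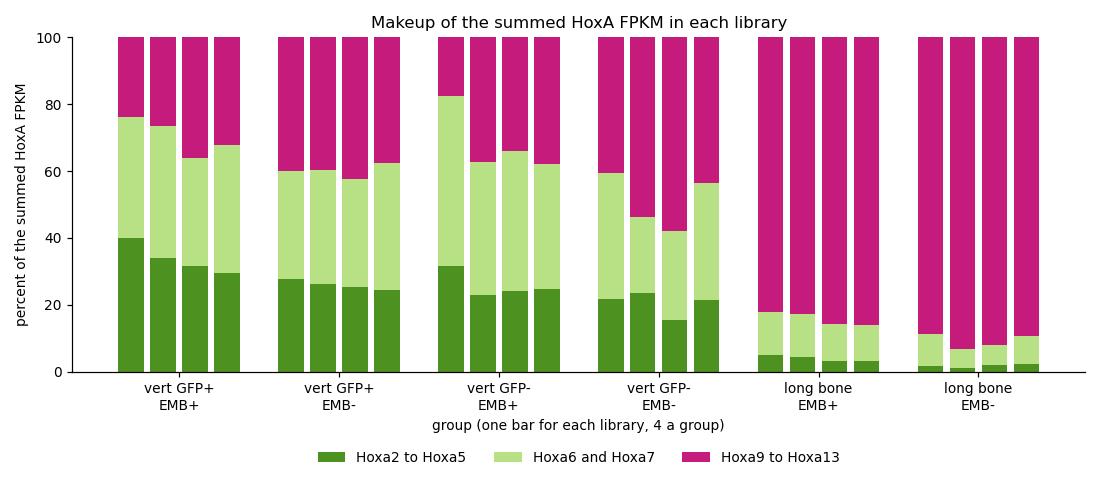
Share of the summed HoxA FPKM, in percent, held by Hoxa2 to Hoxa5, by Hoxa6 and Hoxa7 and by Hoxa9 to Hoxa13 in each of the 24 libraries, by group. The share of Hoxa9 to Hoxa13 lies between 17.5% and 58.0% in vertebral libraries and between 82.1% and 93.2% in long bone libraries.

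Genes of the same number in other Hox clusters, the paralogues, arose from a shared ancestor and often work with their HoxA partner. The vertebral minus long bone difference of each HoxA gene was compared with that of its HoxB, HoxC or HoxD paralogue in 12 pairs where both passed the expression filter, in 4 comparisons each. Of these 48 tests, 32 passed at an adjusted p of 0.0429. Each such test had an exact two-sided permutation p of 0.0286 over 70 regroupings of 4 against 4 libraries, which is the smallest p this design allows. Hoxa3, Hoxa11 and Hoxa13 had no paralogue that passed the filter. Hoxb5, Hoxb6, Hoxb7 and Hoxb9 had means of at most 0.23 FPKM in long bone cells and passed it in vertebral libraries alone. Their direction was thus tied to that site. Hoxd10 was also low in long bone cells, at means of 0.255 FPKM with EMB and 0.412 FPKM without it. The test concerns the difference on the log2(FPKM + 1) scale, which understates changes of low genes.

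Hoxa9 and Hoxb9 went opposite ways. In EMB+ cells Hoxa9 was lower in vertebral GFP+ than in long bone cells by the value above, while Hoxb9 was higher by 2.27, with respective means of 4.24 and 0.075 FPKM. For GFP+ cells the gap between the pair was -3.55 among EMB+ and -4.33 among EMB- cells, and for GFP- cells -2.89 and -3.42, each with no overlap. Hoxc9 differed by only -0.44 to -0.10 between the sites, and Hoxd9 by -0.03 to 0.92, so that Hoxa9 was apart from all 3 of its paralogues in all 4 comparisons. Hoxa10 was likewise apart from Hoxc10, which was lower in vertebral cells by a smaller amount of -1.38 to -0.49, and from Hoxd10, whose difference was 0.33 to 0.94 in the other direction.

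In the first block, Hoxb6 and Hoxb7 showed a larger vertebral excess than Hoxa6 and Hoxa7. Hoxb7 had means of 14.4 to 18.9 FPKM in the vertebral groups and 0.071 and 0.082 FPKM in long bone cells, with a difference of 3.83 to 4.20 on the log2(FPKM + 1) scale, and the gap of Hoxa7 to it was -3.34 to -2.61. Hoxb6 had means of 6.40 to 9.38 FPKM in vertebral cells and 0.014 and 0.063 FPKM in long bone cells, and the gap of Hoxa6 to it was -2.63 to -1.90. In long bone cells Hoxa7 at a mean of 8.39 FPKM in EMB+ cells was thus present where Hoxb7 was near 0. Hoxa6 differed from Hoxc6 in 3 of the 4 comparisons, vertebral GFP+ against long bone EMB+ being the exception at -0.16 (adjusted exact permutation p = 0.64). Hoxa5 differed from Hoxc5 in vertebral GFP+ against long bone EMB+ cells alone, by 0.93. The pairs Hoxa2 with Hoxb2, Hoxa4 with Hoxc4 and Hoxa5 with Hoxb5 passed in none of the 4, with adjusted exact permutation p from 0.083 to 0.886 and gaps of -0.53 to 0.73, which does not show that they are alike. By the ratio of mean FPKM, vertebral GFP+ over long bone, Hoxa2 was at 27.9 in EMB+ and 42.0 in EMB- cells against 2.38 and 4.60 for Hoxb2, and Hoxa5 was at 5.09 and 4.40 against 21.3 and 198 for Hoxb5. Hoxa2 and Hoxb5 were near 0 in long bone cells and rest on few fragments there, and the ratios were not tested. For Hoxa2 and Hoxb2 in EMB- cells the ratio and the gap also point opposite ways.

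By cluster, all 6 HoxB genes tested were called higher in vertebral cells in each of the 4 comparisons. Of 6 HoxC genes, 4 were called higher and 1 lower in each, but in both EMB- comparisons the lower call was lost with median-ratio and with quantile scaling, where 4 were higher and 0 lower. Of 3 HoxD genes, 0, 3, 1 and 2 were called higher and none lower, in the order EMB+ and EMB- for GFP+ cells, followed by EMB+ and EMB- for GFP- cells. The HoxA cluster thus had 4 lower calls among 10 genes, against 1 without scaling among 15 genes of the other 3 clusters that could be tested in each comparison. The sets are not matched by number, since Hoxa11 and Hoxa13 were lower and no paralogue of either could be tested. Nor are they matched by the filter, which tied Hoxb5, Hoxb6, Hoxb7, Hoxb9 and the HoxA members named earlier to a site. The counts therefore do not show that the clusters differ.

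**Figure D4:**
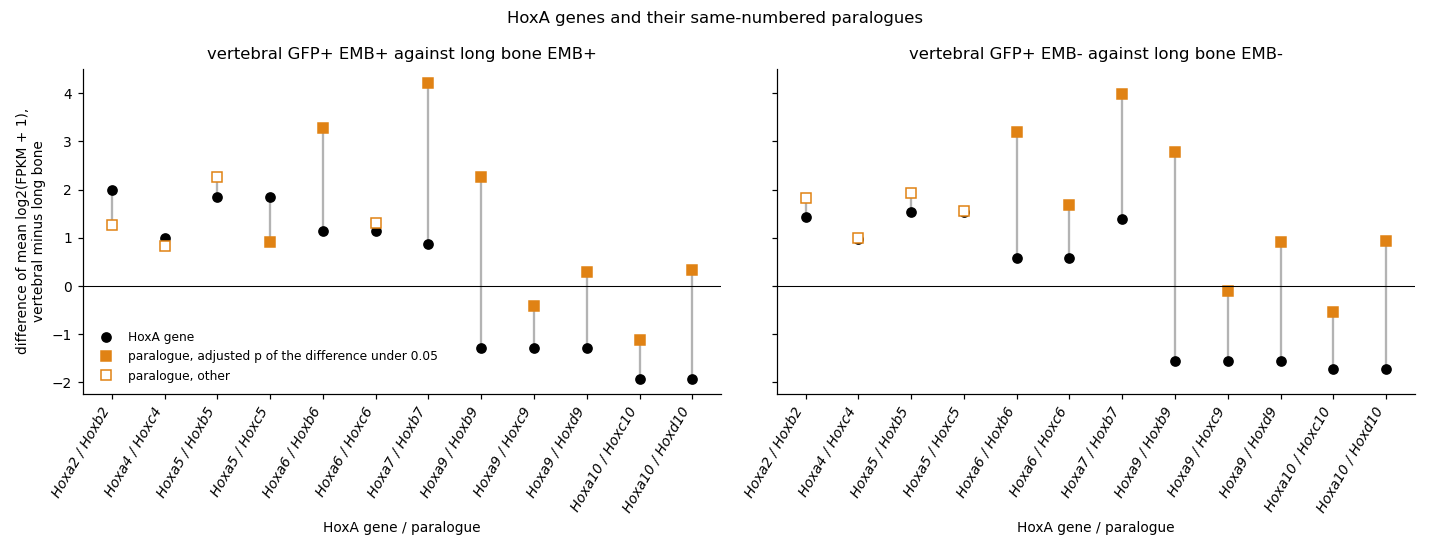
Vertebral GFP+ minus long bone difference in log2(FPKM + 1) of each HoxA gene (black circles) and of its same-numbered paralogue (squares), in EMB+ cells on the left and EMB- cells on the right, with filled squares where the pair's difference had an adjusted p under 0.05. The Hoxb9 squares lie above 0, at 2.27 and 2.78, where the Hoxa9 circles lie at -1.28 and -1.55.

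Within the vertebral cells, the HoxA genes did not move together with EMB. In vertebral GFP+ cells, limma called 6 members, 4 higher in EMB+ (Hoxa2, Hoxa4, Hoxa5 and Hoxa6) and 2 lower (Hoxa3 and Hoxa11), where 50.0% of all genes were called, 42.1% higher and 7.85% lower. In vertebral GFP- cells it called 5, of which Hoxa2, Hoxa5, Hoxa6 and Hoxa7 were higher and Hoxa3 lower, where 52.3% of all genes were called, 41.7% higher and 10.6% lower. The shares of members called are close to those of all genes. The median of all genes was itself 0.32 in GFP+ and 0.30 in GFP- cells, and 84.3% and 79.7% of all calls were higher. These shares were 46.9% and 43.7% with median-ratio and 51.8% and 53.8% with quantile scaling, so the direction of a small difference depends on the scaling. In GFP+ cells the members called were 1 higher and 3 lower under both scalings. In GFP- cells they were 2 higher and 3 lower with median-ratio scaling, and 3 higher and 2 lower with quantile scaling.

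Hoxa5 was higher in the EMB+ cells of both vertebral lineages. GFP+ EMB- libraries were at 5.13, 4.59, 5.74 and 3.75 FPKM, all below the GFP+ EMB+ libraries, and GFP- EMB- libraries were all below the GFP- EMB+ libraries, with the values given above. The log2(FPKM + 1) difference was 0.77 (limma adjusted p = 0.0020) in GFP+ and 1.19 (limma adjusted p = 2e-05) in GFP- cells. With median-ratio scaling it was 0.44 (adjusted p = 0.083) in GFP+ and 0.86 (adjusted p = 0.0006) in GFP- cells, so the call in GFP- cells alone did not depend on that choice. Hoxa6 was higher in EMB+ by 0.82 (limma adjusted p = 0.00070) in GFP+ and 0.65 (limma adjusted p = 0.0043) in GFP- cells. It kept the first call with median-ratio scaling, at 0.59 (adjusted p = 0.0145), and lost the other, at 0.42 (adjusted p = 0.071). Hoxa2 was higher by 0.65 (limma adjusted p = 0.0039) and 0.84 (limma adjusted p = 0.00031). Only the call in GFP- cells held with median-ratio scaling, at 0.60 (adjusted p = 0.0072), against 0.38 (adjusted p = 0.11) in GFP+ cells.

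Hoxa3 went the other way in vertebral cells. It was at 3.19, 1.79, 1.01 and 2.01 FPKM in GFP- EMB+ and 5.19, 4.46, 2.59 and 3.07 FPKM in GFP- EMB- libraries, which overlapped, while the GFP+ groups given above did not. The difference was -0.65 (limma adjusted p = 0.0095) in GFP+ and -0.70 (limma adjusted p = 0.0049) in GFP- cells, and both calls held with median-ratio scaling, at -0.96 in GFP+ cells. Hoxa11 was lower in EMB+ cells in the GFP+ lineage by -0.87 (limma adjusted p = 0.0012), with no overlap, and its difference in GFP- cells was -0.27, which was not called without scaling but was -0.57 (adjusted p = 0.031) with median-ratio scaling. Hoxa10 had differences of -0.29 and -0.33 that were not called without scaling. With median-ratio scaling they were -0.65 (adjusted p = 0.0050) and -0.71 (adjusted p = 0.0019), and with quantile scaling -0.64 and -0.63, both called.

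Hoxa4 was higher in EMB+ cells by 0.40 (limma adjusted p = 0.031) in GFP+ cells, a call that was lost without any 1 of 5 single libraries of those 2 groups, namely EMB+ replicates 1 and 2 and EMB- replicates 1, 2 and 3 (adjusted p from 0.0532 to 0.11). The Hoxa4 call was also lost with median-ratio scaling, at 0.17 (adjusted p = 0.479), and with quantile scaling, at 0.20 (adjusted p = 0.342). Its difference of 0.31 in GFP- cells was not called. Hoxa7 was not called for EMB in GFP+ cells, at 0.02, with overlapping libraries at 13.8 to 17.3 FPKM in EMB+ and 14.3 to 17.3 FPKM in EMB- cells. In GFP- cells Hoxa7 was higher in EMB+ by 0.74 (limma adjusted p = 0.0013), with no overlap, but with median-ratio scaling the difference was 0.35 (adjusted p = 0.11). The Hoxa7 and Hoxa9 differences in GFP+ cells were below 0 with median-ratio and with quantile scaling, and were not called there. Without scaling Hoxa9 and Hoxa13 were not called, with differences of 0.02 and -0.22 for Hoxa9 and -0.05 and -0.14 for Hoxa13.

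In long bone cells limma called 1 member, Hoxa7, where 33.5% of all genes were called, 17.5% as higher in EMB+. The higher share of all calls there was 52.3%, and 39.9% with median-ratio scaling, under which Hoxa7 remained the 1 member called. The Hoxa7 difference was 0.54 (limma adjusted p = 0.020) although its EMB+ libraries, at 6.75 to 9.54 FPKM, overlapped its EMB- libraries, at 3.32 to 7.84 FPKM. The call was lost when only the 2 long bone groups entered the fit (adjusted p = 0.132), without EMB+ replicate 1 (adjusted p = 0.0608) and without EMB- replicate 2 (adjusted p = 0.11) or 3 (adjusted p = 0.0507). Hoxa3 and Hoxa4 were higher in every long bone EMB+ library than in any EMB- library, but their differences of 0.38 (limma adjusted p = 0.15) and 0.37 (limma adjusted p = 0.059) were not called. Hoxa5 was at 0.671, 0.360, 1.03 and 2.30 FPKM in long bone EMB- cells, and without replicate 4, the highest of these, the EMB difference was called at 0.72 (adjusted p = 0.0008). The 4 genes of the second block had overlapping libraries.

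**Figure D5:**
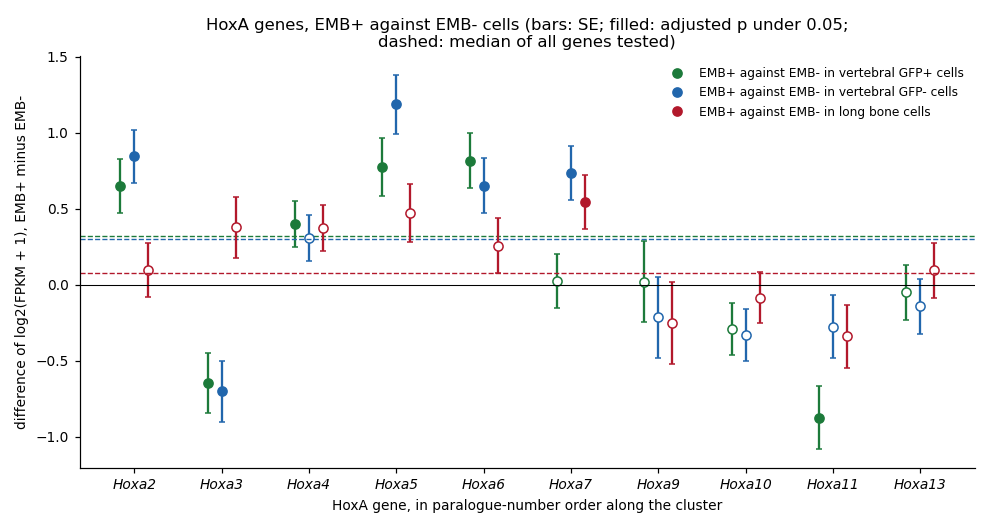
Log2(FPKM + 1) difference, EMB+ minus EMB-, of each HoxA gene in vertebral GFP+, vertebral GFP- and long bone cells, with bars for 1 SE, filled points for an adjusted p under 0.05 and dashed lines for the median of all genes. Hoxa5 lies at 0.77 and 1.19 in the vertebral lineages, and Hoxa3 lies at -0.65 and -0.70 there against 0.38 in long bone cells.

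Whether the EMB difference depended on the site was tested directly. Hoxa3 was called in both comparisons of a vertebral lineage with long bone cells. The difference of its EMB effect was -1.02 (limma adjusted p = 0.0067) for GFP+ cells, where 30.5% of all genes were called, 5.57% as lower. It was -1.08 (limma adjusted p = 0.0053) for GFP- cells, where 29.8% were called, 24.7% higher and 5.07% lower. Hoxa3 was the only member called for GFP+ cells, although 4 members had an unadjusted p under 0.05. For GFP- cells Hoxa2 was also called, at 0.75 (limma adjusted p = 0.025), and lost its call without vertebral GFP- EMB+ replicate 3 (adjusted p = 0.0594). Hoxa5, at 0.71 (limma adjusted p = 0.0501), just missed the threshold. Hoxa2 is near 0 in long bone cells, where the log2(FPKM + 1) scale understates a change. By the ratio of mean FPKM, EMB+ over EMB-, Hoxa2 was at 2.65 in vertebral GFP- and 2.88 in long bone cells. The latter ratio rests on few fragments, and the call does not show a smaller relative EMB difference of Hoxa2 in long bone cells. Between the GFP+ and GFP- lineages limma called 0 members, where 4.87% of all genes were called, and 2 members had an unadjusted p under 0.05. Over all genes the higher share of calls was 81.7% and 83.0% for the comparisons with long bone, 57.6% and 54.4% with median-ratio and 46.9% and 49.6% with quantile scaling.

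Markers of several cell types moved with EMB. In vertebral cells 12 of 13 chondrocyte markers were called higher and 1 lower in EMB+ in both lineages. List medians were 1.36 in GFP+ and 1.25 in GFP- cells, where the medians of all genes were those given above. Their summed level was not higher in EMB+ cells. It was 53840 to 57265 FPKM in GFP+ EMB+ and 55388 to 58583 FPKM in GFP+ EMB- libraries. In GFP- cells it was 54416 to 56077 FPKM with EMB and 56896 to 61620 FPKM without it. Osteoblast markers were called higher for 9 of 11 in GFP- cells (list median 2.09). In GFP+ cells 5 of 11 were called higher and 2 lower (list median 0.17), near the 42.1% of all genes called higher there. Their sums in GFP+ cells went the other way, at 6114 to 7212 FPKM in EMB+ and 7837 to 8437 FPKM in EMB- libraries. Leukocyte markers were called higher for 5 of 6 tested in GFP- and 3 of 6 in GFP+ cells. All 7 tendon and ligament markers were called lower in vertebral EMB+ cells of both lineages, and fibroblast and periosteum markers were lower for 7 of 8 in both, with summed levels of 287 to 481 FPKM in EMB+ and 1143 to 1674 FPKM in EMB- vertebral libraries. The 9 erythroid markers were called lower in EMB+ in vertebral GFP- and in long bone cells, and none of 9 was called in vertebral GFP+ cells, where their list median was -0.62 and their sums were 199 to 551 FPKM in EMB+ and 266 to 979 FPKM in EMB- libraries. In long bone cells 10 of 13 chondrocyte markers were called higher and 6 of 8 fibroblast and periosteum markers lower. The summed chondrocyte level overlapped there, at 30501 to 44309 FPKM in EMB+ and 30754 to 41051 FPKM in EMB- libraries. The part of these markers in the HoxA differences was not tested.

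The HoxA genes were also compared by GFP, the mark of the zic1-cre lineage. In vertebral EMB+ cells limma called 0 HoxA members, where 2.10% of all genes were called, and 0 members had an unadjusted p under 0.05. This comparison rests on the 4 libraries with conflicting labels. In vertebral EMB- cells limma called 2 members, Hoxa2 and Hoxa5, both higher in GFP+, where 8.47% of all genes were called, 2.25% as higher in GFP+. With quantile scaling the higher share of all calls was 41.4%, against 26.6% without scaling. Hoxa5 was higher in every GFP+ EMB- library, at 3.75 to 5.74 FPKM, than in any GFP- EMB- library, at 1.98 to 3.28 FPKM, with a difference of 0.71 (limma adjusted p = 0.017). Hoxa2 overlapped, with a difference of 0.55 (limma adjusted p = 0.049), and lost its call without the 4 libraries with conflicting labels (adjusted p = 0.0608). Both calls were lost without GFP+ EMB- replicate 1 or 3 or without GFP- EMB- replicate 1 or 3. Hoxa7 had a difference of 0.46 (limma adjusted p = 0.13), which passed with the replicate number as a block (adjusted p = 0.0097). Erythroid markers, at 266 to 979 FPKM in GFP+ EMB- and 7300 to 12394 FPKM in GFP- EMB- libraries, moved with this comparison. So did osteoblast markers, of which 8 of 11 were called higher in GFP+ (list median 1.04), with sums of 7837 to 8437 FPKM in GFP+ EMB- and 4248 to 5273 FPKM in GFP- EMB- libraries. The part of these markers in the Hoxa2 and Hoxa5 calls was not tested.

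The genes known to act with or on Hox clusters were followed through the same site comparisons, given here for GFP+ cells (EMB+, then EMB-), followed by GFP- cells (EMB+, then EMB-). Over all genes tested, 8.66%, 7.40%, 8.49% and 8.05% were called higher in that order. The shares called lower were 12.9%, 40.4%, 10.6% and 40.2%. Of 7 limb identity factors tested, 0 were higher and 7 lower in vertebral cells in each comparison. With quantile scaling 5 were lower for GFP- EMB- cells. Pitx1, Tbx4 and Shox2 reached at most 0.641 FPKM in any vertebral library and passed the filter in long bone libraries alone. Zic1 reached at most 0.108 FPKM outside vertebral GFP+ cells and passed through those cells alone. The direction of these genes was thus tied to the filter. In GFP+ EMB+ cells Shox2, needed for the proximal limb skeleton, was lower by -5.41, Pitx1, the hindlimb selector, by -5.03, and Tbx4, a hindlimb T-box factor, by -2.96 on the log2(FPKM + 1) scale. Of 9 axial sclerotome factors tested, 6, 6, 5 and 4 were higher and 1, 1, 1 and 3 lower. In GFP+ EMB+ cells Pax1, a ventral sclerotome factor, was higher by 4.89, Uncx, which patterns the vertebral pedicles, by 2.67, and Zic1, the marked lineage's own gene, by 1.51, while Tbx18 was the gene called lower.

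Hox proteins bind DNA with TALE cofactors of the Pbx, Meis and Pknox families. Of 9 tested, 1, 2, 1 and 3 were higher and 3, 1, 0 and 1 lower in vertebral cells. Meis2, a cofactor that marks the proximal limb, was lower by -1.47 and Meis1 by -0.56 in GFP+ EMB+ cells, while Pknox2 was higher by 0.75. In EMB- cells Meis1 was higher instead, by 0.48 in GFP+ and 0.66 in GFP- cells. Of 13 retinoic acid pathway genes tested, 0, 0, 1 and 1 were higher and 5, 5, 4 and 6 lower. The lower counts in EMB- cells were near the 40.4% and 40.2% of all genes called lower there. In GFP+ EMB+ cells Aldh1a1, a retinoic acid synthesising enzyme, was lower by -1.63, the receptor Rara by -1.10 and the retinol dehydrogenase Rdh10 by -0.68. With median-ratio scaling the counts in EMB- cells were 4 higher and 5 lower for GFP+ and 3 higher and 4 lower for GFP- cells.

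Of 23 Polycomb, Trithorax-type and boundary genes that keep Hox clusters on or off, all tested, 2, 1, 2 and 0 were higher and 0, 9, 0 and 8 lower in vertebral cells. The lower counts in EMB- cells were near the 40.4% and 40.2% of all genes called lower there, so this list did not stand out. In GFP+ EMB+ cells the 2 called were Ezh1 and Eed, members of the complex that methylates histone H3, at 0.74 and 0.40. In GFP+ EMB- cells Ezh2, the main methyltransferase of that complex, was lower by -1.88, the boundary factor Ctcf by -1.45 and Phc2 by -0.56. The direction of this list in EMB- cells changed with scaling, to 3 higher and 5 lower for GFP+ and 3 higher and 4 lower for GFP- cells with median-ratio, and to 5 higher and 4 lower and 4 higher and 3 lower with quantile scaling. Of 7 genes that flank the cluster and passed the filter, 0, 1, 0 and 1 were higher and 1, 3, 1 and 3 lower, where all 10 HoxA genes were called. In EMB- cells the lower counts of the flanking genes were also near the shares of all genes. Hibadh was the flanking gene called lower in GFP+ EMB+ cells, by -0.26, a call that was lost with median-ratio and with quantile scaling. Evx1, next to Hoxa13, did not pass the filter.

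The genes outside the HoxA cluster whose levels ran most like a HoxA gene were found by Pearson's r over log2(FPKM + 1) in the 24 libraries. This was done for the 3 members with the highest mean, and HoxA genes were left out of the search. The libraries share the 6 groups, so r mostly reads the differences between groups and is given as a description. For Hoxa10 they were Pitx1 (r = 0.962), Tbx4 (r = 0.961), Shox2 (r = 0.950), Mab21l2 (r = 0.949) and Cpxm1 (r = 0.944). Pitx1 was at a mean of at most 0.027 FPKM in the vertebral groups and at 32.2 and 43.7 FPKM in the respective EMB+ and EMB- long bone groups, whereas Hoxa10 kept 10.5 to 13.1 FPKM in vertebral cells. For Hoxa11 they were Cpxm1 (r = 0.951), Sfrp2 (r = 0.947), Tbx4 (r = 0.947), Plxdc2 (r = 0.944) and Ecm1 (r = 0.939). For Hoxa7 they were Ppic (r = 0.925), Hoxc6 (r = 0.909), Tvp23b (r = 0.898), Wisp3 (r = 0.893) and Htra1 (r = 0.887). Of the 15 places, 1 was thus held by a Hox gene of another cluster.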

How the data were processed

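RNA from 24 sorted cell samples, 4 in each of 6 groups, was measured by RNA-seq. Per the labels' protocols, libraries were made with SMART-Seq v4 and Nextera XT. Per the submitters' processing notes, bcl2fastq 2.19, STAR 2.5.2, Cufflinks 2.1.1 and the build GRCm38 were used. The FPKM values were used as deposited by the authors. Of 22053 entries, 46 repeats of an identifier, 56 repeats of a symbol and 3 genes with a failed estimate were left out, which left 21948. Groups were taken from the tissue and cell type labels.

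A single limma fit (limma 3.58.1, R 4.3.3) of log2(FPKM + 1), with empirical Bayes trend and robust settings, covered all 6 groups and the 11767 genes that reached 1 FPKM in at least 4 libraries. It had 18 residual degrees of freedom. P-values are two-sided and were adjusted by Benjamini and Hochberg's method over the genes tested, with calls at 0.05. A fold change on this scale understates the change of low genes. Ratios of mean FPKM were taken without the pseudocount. HoxA genes were set against paralogues by exact permutation tests (SciPy 1.17.1), adjusted over 48 tests. The fit was tested on simulated data.

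The members and gene lists were chosen with earlier results of these data known. Every member is named. Of other lists, counts are given, with up to 3 genes of the smallest adjusted p. Like genes are the 5 tested genes outside the HoxA cluster with the highest r for each of the 3 members with the highest mean. Alternatives were pseudocounts of 0.1 and 5, filters at 5 FPKM and none, quantile and median-ratio scaling, library weights, the compared groups alone, each library left out, the libraries with conflicting labels left out, and a replicate block. Vertebral titles carry replicate numbers. Deviations of same-numbered libraries correlated at 0.169 to 0.337 between GFP+ and GFP- EMB+ cells, at 0.130 to 0.292 between GFP+ and GFP- EMB- cells and at 0.135 to 0.236 between GFP- EMB+ and EMB- cells, each over 0.1. Between GFP+ EMB+ and GFP- EMB- cells they correlated at 0.200 to 0.248, and between GFP+ EMB- and GFP- EMB+ cells at 0.104 to 0.184. Between GFP+ EMB+ and EMB- cells the range was 0.0971 to 0.279, with the lowest just under 0.1. With long bone EMB- cells the lowest values were -0.297 to -0.0446, and the long bone EMB+ titles all carry the number 1. By this measure the numbers pair the vertebral libraries, with GFP+ EMB+ and EMB- cells at the margin. All values come from the fit without a block unless a block is named.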

Additional observations from a re-analysis of the deposited data

Results flagged for a closer look

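Of 59 sets of 4 libraries of a member and group that could be checked, 5 had 1 library far from the other 3, where chance gives about 1 in 20. The library was at 0.418 FPKM for Hoxa2 in long bone EMB+ cells, at 16.1 FPKM for Hoxa9 in long bone EMB- cells, at 13.8 FPKM for Hoxa10 in vertebral GFP+ EMB+ cells, at 13.8 FPKM for Hoxa11 in long bone EMB+ cells and at 0.0248 FPKM for Hoxa13 in vertebral GFP+ EMB+ cells. Each was the highest of its group, and the last is the only value above 0 there. The site calls of these 5 genes were kept without any single library.

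The EMB difference of Hoxa3 was not the same at the 2 sites, by a direct test in limma. The vertebral minus long bone difference was -1.02 for GFP+ and -1.08 for GFP- cells. Hoxa2 had a difference of 0.75 for GFP- cells on the log2(FPKM + 1) scale. Its ratio of mean FPKM, EMB+ over EMB-, was 2.65 in vertebral GFP- and 2.88 in long bone cells, where its level is near 0.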

How the results depend on the processing

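No called difference of a member changed sign under the alternatives run. Of 2190 member values under an alternative, 81 had a changed sign, and none of these was called with or without the alternative. All 10 site calls held in each of the 4 comparisons, except for Hoxa6 in vertebral GFP- against long bone EMB- cells as given above (9 to 10 calls with single libraries left out). With a filter at 5 FPKM only 5 members were tested and 5 were called in each. The other counts moved more, and the causes were not tested. For EMB in vertebral GFP+ cells, 6 calls became 3 with a pseudocount of 0.1, 2 with a filter at 5 FPKM, 4 with median-ratio or quantile scaling (1 higher and 3 lower, against 4 and 2) and 5 to 6 with single libraries left out. In vertebral GFP- cells, 5 calls became 2 with that filter and 5 to 6 with libraries left out, and their 4 higher and 1 lower became 2 and 3 with median-ratio and 3 and 2 with quantile scaling. In long bone cells, 1 call became 4 with a pseudocount of 0.1, 3 with quantile scaling, 3 with library weights, 0 with the 2 groups alone and 0 to 2 with libraries left out. For GFP in EMB- cells, 2 calls became 0 with a pseudocount of 0.1, 1 with a pseudocount of 5, 1 with no filter, 1 with a filter at 5 FPKM, 1 without the libraries with conflicting labels and 0 to 2 with single libraries left out. For the difference of the EMB effect between GFP+ vertebral and long bone cells, 1 call became 4 with a pseudocount of 5, 0 with a filter at 5 FPKM, 3 with quantile scaling, 2 with median-ratio scaling, 3 with library weights and 1 to 2 with libraries left out. For GFP- cells, 2 calls became 1 with a pseudocount of 0.1, 1 with a filter at 5 FPKM, 1 with quantile scaling, 1 with median-ratio scaling and 1 to 3 with libraries left out. Between the vertebral lineages, 0 calls became 1 with library weights. The 32 paralogue tests that passed were 38 and 34 with pseudocounts of 0.1 and 5.

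In the fits with a replicate block, the calls were 6 and 5 for EMB in vertebral GFP+ and GFP- cells, 0 and 3 for GFP in EMB+ and EMB- cells and 10 in both EMB- site comparisons. The block changed the call of Hoxa7 for GFP in EMB- cells and no other HoxA call. Low levels limit Hoxa2, Hoxa4, Hoxa6 and Hoxa13 where they rest on few fragments. Hoxa6 rested on about 1 to 11 fragments in long bone EMB- and 7 to 24 in long bone EMB+ libraries.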
